A study of Mus musculus with 69 samples.

Results

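The subject is the difference between primary visual cortex (V1) and primary somatosensory cortex (S1) in the ribosome-bound mRNA of Camk2a neurons of wild-type mice. The libraries were chosen by their labels, as the WT libraries whose animal code starts with C, which gave 8 V1 and 8 S1 libraries out of 69 in the series. They came from 9 animals, of which 7 (C15, C16, C18, C19, C20, C23 and C24) gave both areas, while C1 gave V1 and C2 gave S1. All 16 libraries carried Camk2a-Cre with the Rpl22HA/HA allele and a wild-type Fmr1 gene, from mice aged 70 to 100 days, labelled as 6 females and 2 males in each area. The Camk2a promoter drives Cre in forebrain excitatory neurons of cortex, hippocampus and neighbouring structures, so a dissected area holds tagged ribosomes of all its layers and of any other tagged tissue taken with it. For comparison, the 13 libraries of Fmr1 KO mice with the same Cre and tag (6 V1 and 7 S1, from 7 animals) and the 20 libraries of WT mice with PV-Cre and the same tag (10 V1 and 10 S1) were used.

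V1 receives visual input and S1 receives touch input, each by way of its own thalamic nucleus, whose axons end mainly in layer 4. Excitatory cortical neurons are ordered in layers that differ in their targets: layer 2/3 and part of layer 5 project within the cortex, the remainder of layer 5 projects below the forebrain, and layer 6 projects to thalamus and cortex. In the RiboTag method, Cre recombination puts an HA epitope on RPL22, a protein of the large ribosomal subunit, and immunoprecipitation of the epitope recovers mRNA from ribosomes of the recombined cells, with some carried-over RNA of other cells. A level is given here as CPM, the estimated counts of a gene scaled to a library total of 1 M. A gene was called when its Benjamini-Hochberg adjusted p in edgeR's quasi-likelihood test, with sex as a covariate, was under 0.05, and log2 fold changes are V1 over S1, each ± its standard error (SE).

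The 16 libraries held 27.64 to 47.92 M estimated counts. Camk2a itself had 5369, 5590.3 and 6785 CPM in V1, against 5316, 5940.4 and 6645 CPM in S1 (lowest, median and highest of 7 libraries each, without C24, for the reason given next). Camk2a had a log2 fold change of -0.04 ± 0.07 (adjusted p = 0.755). Without C24, the 10 markers of excitatory neurons summed to 12075 to 14085 CPM in V1 and 12549 to 14683 CPM in S1. None of them was at 0 in any of the 16 libraries, so the labelled cell class carries its markers. Markers of PV interneurons were low in most animals and higher in C18 and C19. There, the 12 genes summed to 1137 and 1204 CPM in V1 and 1582 and 1644 CPM in S1. The other libraries without C24 had 225 to 264 CPM in V1 and 304 to 349.7 CPM in S1. The C24 library labelled V1 had 304 CPM, and the one labelled S1 had 211 CPM. Sex-linked mRNAs went against the sex label in both libraries of C16 and of C23: C16, labelled male, had 9.22 and 10.6 CPM of Xist in V1 and S1, and C23, labelled female, had 38.8 and 30.7 CPM of the Y-linked Ddx3y. The sex covariate used the labels as given, also for these animals.

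The pair of libraries from C24 went against its area labels. An area score was built without any WT Camk2a library, as the mean log2(CPM + 0.5) of 392 genes called higher in V1 in both the KO Camk2a and the WT PV libraries, minus that of 320 genes called lower in both. The score was -0.780 to -0.400 in the other 7 V1 libraries and -1.69 to -1.33 in the other 7 S1 libraries. The C24 library labelled V1 scored -1.40, within the S1 range, and the C24 library labelled S1 scored -0.385, above every V1 library. The C24 library labelled S1 was also the only one of the 16 labelled Batch 2, so batch cannot be told apart from this library. Neither library was relabelled: the comparison as designed uses all 16, and values without C24 stand beside it.

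**Figure D1:**
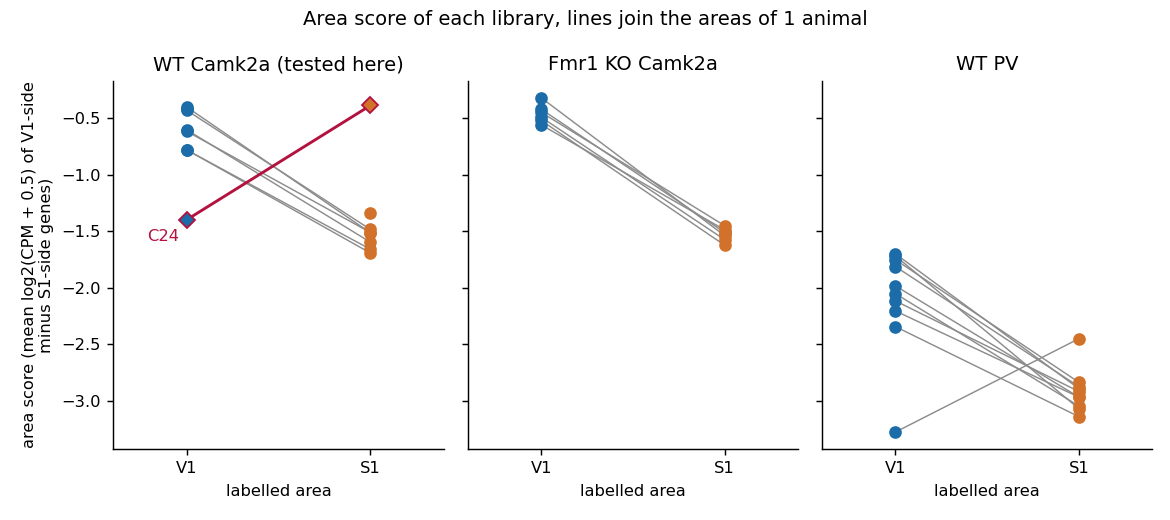
Area score of each library (y axis, log2 units) by labelled area (V1 left, S1 right), with lines joining the libraries of 1 animal, for WT Camk2a, Fmr1 KO Camk2a and WT PV libraries. The score genes were chosen in the KO Camk2a and WT PV libraries, so those panels tend to separate by construction. In WT PV the areas still overlap, and P22 ran against its labels. In WT Camk2a, V1 scored above S1 in the 6 other animals with both areas, and C24 (red) ran the other way.

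With all 16 libraries, 56 of 15607 genes were called (0.359%), 40 higher (0.256%) and 16 lower (0.103%) in V1. Without C24, 3405 of 15614 genes were called (21.8%), 1722 higher (11%) and 1683 lower (10.8%). All 56 calls of the 16 libraries were also made without C24, and 4 of the 56 with a block for the 7 animals that gave both areas. Of the genes called without C24 that were tested in both fits, 3402 of 3402 had the same sign in both fits. The libraries without C24 are all among the 16, so agreement between these fits was likely beforehand. It is no separate support for either fit. Most differences were small: the median absolute log2 fold change of the 3405 genes was 0.32, and 130 of them were at least 2-fold higher and 167 at least 2-fold lower in V1. With the animal as a block, which leaves the animals that gave both areas, 7 of 15615 genes (0.0448%) were called over 7 pairs and 5263 of 15607 (33.7%) over the 6 pairs without C24, and the 5263 included 3313 of the 3405. Leaving out any animal other than C24 from the 16 libraries gave 0 to 23 calls. The values below are those of the 14 libraries without C24, and "with C24" gives the fit of all 16. C24 was left out after its libraries were seen to lie against their area labels. The p-values and the lack of overlap between areas without C24 therefore depend on a choice made on these data. Counts of list members called are to be read beside the share of all genes called. That share was 21.8% without C24, 33.7% with animal blocks and 13.1% in KO Camk2a.

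Genes induced by neuronal activity were higher in V1. These immediate early and delayed early genes are transcribed within minutes to hours of synaptic activity, through transcription factors such as CREB and SRF that sit at their promoters. Of 34 tested, 17 were called higher in V1 and 0 lower, and all 34 had a positive log2 fold change, with a median of 0.74 against -0.0050 over all genes tested. With C24, 1 was called and the median was 0.56; in the fit with animal blocks 27 were called higher, and without C18, C19 and C24 14. The summed level of the list was 5296 to 10801 CPM in V1, with a median of 7198, against 3754 to 6378 CPM in S1, with a median of 4582. The ranges overlapped between animals, C23 and C15 having the highest sums in both areas, while V1 was above S1 in each of the 6 animals with both areas.

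The promoters of the 5 called members with the largest log2 fold change whose RefSeq window held a CRE core or a CArG box are shown. These are the motifs bound by CREB and SRF, the factors named above. Each window runs from 250 bases before to 50 bases after an annotated start, 5′ to 3′ in the direction of transcription, in RefSeq on GRCm38.p6. Of several windows of a gene, the one with the most matches to these motifs was taken, which was 1 of 5 for Egr2. Capitals mark the CRE core TGACG, read on either strand (CGTCA), and the CArG box bound by SRF, which is found in the Egr2 window alone among these 5. The Egr2 window is chr10:67537619-67537918 on the plus strand, Ptgs2 is chr1:150099781-150100080 on the plus strand, Fosb is chr7:19309996-19310295 on the minus strand, Egr4 is chr6:85513540-85513839 on the minus strand and Nr4a3 is chr4:48045055-48045354 on the plus strand.
Egr2: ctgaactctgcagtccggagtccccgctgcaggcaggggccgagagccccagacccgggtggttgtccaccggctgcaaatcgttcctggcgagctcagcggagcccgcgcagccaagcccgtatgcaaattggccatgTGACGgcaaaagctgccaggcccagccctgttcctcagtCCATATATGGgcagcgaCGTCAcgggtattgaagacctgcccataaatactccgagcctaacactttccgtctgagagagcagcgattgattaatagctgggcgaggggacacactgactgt
Ptgs2: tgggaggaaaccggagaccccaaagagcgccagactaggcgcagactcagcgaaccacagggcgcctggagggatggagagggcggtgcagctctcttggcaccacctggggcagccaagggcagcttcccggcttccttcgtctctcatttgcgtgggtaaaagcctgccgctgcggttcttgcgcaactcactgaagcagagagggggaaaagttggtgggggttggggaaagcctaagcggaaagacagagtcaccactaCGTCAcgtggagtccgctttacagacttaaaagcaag
Fosb: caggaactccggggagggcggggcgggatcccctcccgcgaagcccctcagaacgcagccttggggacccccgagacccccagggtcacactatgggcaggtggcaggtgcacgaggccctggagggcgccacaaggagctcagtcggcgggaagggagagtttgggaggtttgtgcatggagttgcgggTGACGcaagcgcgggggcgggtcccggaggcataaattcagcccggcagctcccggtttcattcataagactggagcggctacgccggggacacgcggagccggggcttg
Egr4: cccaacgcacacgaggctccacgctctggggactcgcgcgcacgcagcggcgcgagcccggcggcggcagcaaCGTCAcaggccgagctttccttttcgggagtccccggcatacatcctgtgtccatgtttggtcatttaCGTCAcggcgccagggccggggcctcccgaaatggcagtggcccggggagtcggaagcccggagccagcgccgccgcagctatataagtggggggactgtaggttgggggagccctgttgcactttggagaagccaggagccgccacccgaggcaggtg
Nr4a3: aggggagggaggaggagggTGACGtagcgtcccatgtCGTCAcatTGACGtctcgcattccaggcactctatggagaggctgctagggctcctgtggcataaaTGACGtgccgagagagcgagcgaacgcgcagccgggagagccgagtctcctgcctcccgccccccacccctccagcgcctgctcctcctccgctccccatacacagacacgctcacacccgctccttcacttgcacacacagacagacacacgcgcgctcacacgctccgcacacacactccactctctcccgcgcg

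Of the 35 listed genes, 27 had a window, and the CRE core was in 19 of them (70.4%), against 23.0% of all 27025 genes with a window. The share was 66.7% of the 15 matched genes called higher in V1. The full CRE, TGACGTCA, was in 3 listed genes (11.1%) and in 2.03% of all genes. The windows of the list also held more G and C, with a median of 61.0% against 52.7%, and a gene counted if any of its windows held the motif. The listed genes had 40 windows for 27 genes, against 32851 for 27025 overall. The part of base composition and of the number of windows in these shares was not tested. The CArG box was in 1 of the 27 listed genes (3.7%), against 1.81% of all genes.

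Egr4, a zinc finger transcription factor of the EGR family (chr6:85511121-85513589, minus strand, mm10), had 82.6, 96.7 and 177 CPM in V1, against 28.9, 48.2 and 54.8 CPM in S1. No V1 library overlapped an S1 library. Egr4 rose by 1.51 ± 0.20 on the log2 scale (adjusted p = 0.000269), and had a value of 1.25 (adjusted p = 0.0452) with C24, so Egr4 passed in both fits. Egr2, a relative of Egr4, had 33.3, 52.9 and 95.9 CPM in V1, against 8.60, 18.4 and 28.2 CPM in S1. Its groups did not overlap either, and C24 had 13.4 CPM in the library labelled V1 and 42.2 CPM in the library labelled S1, on the other side. Egr2 rose by 1.79 ± 0.31 on the log2 scale (adjusted p = 0.00167), and had a value of 1.39 (adjusted p = 0.074) with C24. Ptgs2, the inducible cyclooxygenase that makes prostaglandins and also a marker of some layer 5 neurons, had 14.1, 33.9 and 65.4 CPM in V1, against 7.22, 10.2 and 13.7 CPM in S1, again without overlap. Ptgs2 rose by 1.74 ± 0.32 on the log2 scale (adjusted p = 0.00264), and had a value of 1.16 (adjusted p = 0.139) with C24. Fosb, a subunit of the AP-1 transcription factor, had 31.2, 97.1 and 201 CPM in V1, against 18.4, 29.3 and 48.6 CPM in S1. Its ranges overlapped across animals, yet V1 was the higher area in 6 of 6 animals. Fosb rose by 1.70 ± 0.45 on the log2 scale (adjusted p = 0.0179). Pim1, a serine/threonine kinase induced with these genes, rose by 1.58 ± 0.37 (adjusted p = 0.00957) on the log2 scale and was higher in 5 of 6 animals. Dusp6, a phosphatase that acts on ERK, had 149, 165 and 185 CPM in V1, against 88.9, 111 and 122 CPM in S1, without overlap. Dusp6 rose by 0.66 ± 0.08 on the log2 scale (adjusted p = 1.97e-05). In the KO Camk2a libraries 8 of 34 listed genes were called higher and 0 lower, and in WT PV neurons 29 of 35 higher and 2 lower. In those PV libraries, markers of other cell types were also called higher in V1, as given with that comparison below. Without C1, C15, C18 and C24, 12 of 34 were called higher in WT Camk2a.

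**Figure D2:**
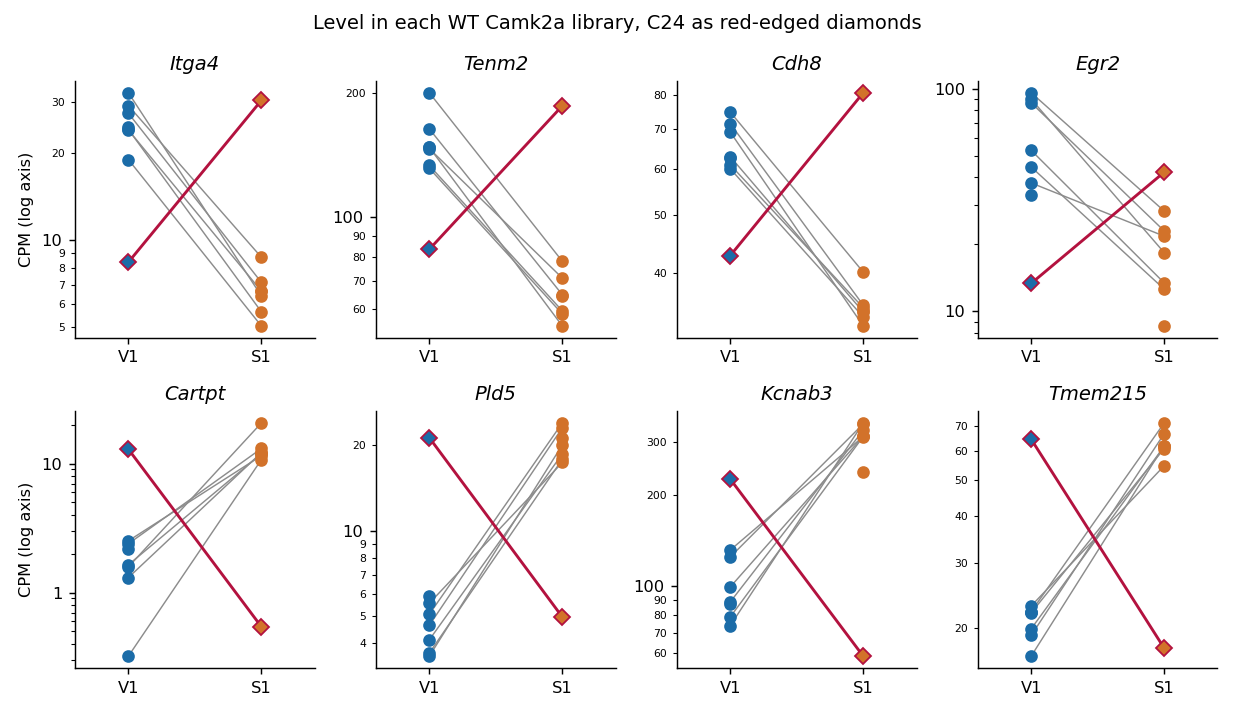
Level in CPM (log y axis) of 8 genes in each WT Camk2a library by labelled area (V1 left, S1 right), with lines joining the libraries of 1 animal. Itga4, Tenm2, Cdh8 and Egr2 (top) were higher in V1, and Cartpt, Pld5, Kcnab3 and Tmem215 (bottom) lower, without overlap among the 7 libraries of each area other than C24, whose libraries (red-edged diamonds) ran the other way in all 8.

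The layer 4 markers were lower in V1 on balance. Of 9 tested, 5 were called lower and 2 higher, with a median log2 fold change of -0.41; with C24 none was called, and 4 were lower and 2 higher in KO Camk2a. Cyp39a1, an oxysterol hydroxylase, had 1.41, 2.49 and 3.50 CPM in V1, against 4.82, 9.88 and 12.5 CPM in S1. Every S1 library was above every V1 library. Cyp39a1 fell by 1.99 ± 0.21 on the log2 scale (adjusted p = 1.64e-05), and had a value of -1.48 (adjusted p = 0.0688) with C24. Rspo1, a secreted activator of Wnt signalling, had 17.2, 21.6 and 22.6 CPM in V1, against 26.3, 34.2 and 44.3 CPM in S1, without overlap. Rspo1 fell by 0.77 ± 0.10 on the log2 scale (adjusted p = 5.35e-05). Rorb, the nuclear receptor that specifies layer 4 identity, had 79.8, 136 and 158 CPM in V1, against 162, 219.9 and 249 CPM in S1. The highest V1 library lay just under the lowest S1 library. Rorb fell by 0.77 ± 0.14 on the log2 scale (adjusted p = 0.00228). Scnn1a, a sodium channel subunit used as a layer 4 Cre driver, fell by 0.87 ± 0.19 (adjusted p = 0.00542) on the log2 scale, with overlapping ranges. Endou, an endoribonuclease, ran the other way, at 5.44, 8.89 and 10.3 CPM in V1, against 2.98, 4.42 and 6.05 CPM in S1. Endou rose by 0.92 ± 0.17 on the log2 scale (adjusted p = 0.00167). In bulk samples, fewer cells of a layer and less RNA per cell cannot be told apart, and this holds for every marker below.

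Markers of layer 5 neurons that project out of the forebrain, or of near-projecting neurons, were higher in V1 in 6 of 13 and lower in 1, with a median log2 fold change of 0.54. With C24, no member was called, and 8 were higher and 1 lower in KO Camk2a. Crym, which encodes a thyroid hormone binding protein, had 19.9, 42.8 and 98.6 CPM in V1, against 10.5, 12.6 and 21.7 CPM in S1. Crym rose by 1.94 ± 0.36 on the log2 scale (adjusted p = 0.00283). Tshz2, a zinc finger transcription factor of near-projecting neurons, had 9.05, 12.6 and 54.7 CPM in V1, against 2.53, 4.46 and 6.37 CPM in S1. Its highest value was that of C15, far above the other V1 libraries, yet the lowest V1 value stayed above the highest S1 value. Tshz2 rose by 1.93 ± 0.37 on the log2 scale (adjusted p = 0.00302). Lypd1, a modulator of nicotinic receptors, had 27.2, 45.5 and 71.2 CPM in V1, against 13.4, 15.5 and 22.4 CPM in S1, without overlap. Lypd1 rose by 1.54 ± 0.22 on the log2 scale (adjusted p = 0.000412). Npnt, which encodes the matrix protein nephronectin, had a median of 62.8 CPM in V1 (57.0 to 79.3), against 40.7 CPM in S1 (34.9 to 45.1). Npnt rose by 0.74 ± 0.08 on the log2 scale (adjusted p = 8.13e-06). Slco2a1, a prostaglandin transporter, was the member that fell: it had 0.286, 0.508 and 0.788 CPM in V1, against 1.37, 2.36 and 2.73 CPM in S1, without overlap. Slco2a1 fell by 2.01 ± 0.21 on the log2 scale (adjusted p = 8.88e-06). The summed level of the list was highest in V1 of C1 and C15, at 667 and 682 CPM, against 346 to 433 CPM in the other V1 libraries without C24; C1, C15 and C18 also had the most of the hippocampal markers described below. Without these 3 animals and C24, 6 higher and 1 lower were called, and Crym and Tshz2 had 1.31 (adjusted p = 0.032) and 1.38 (adjusted p = 0.00492).

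Other layers gave calls in both directions. Of the 10 markers of layer 5 neurons projecting within the telencephalon, 4 were higher and 2 lower. Etv1, a transcription factor of these cells, had 76.8, 86.1 and 129 CPM in V1, against 42.4, 49.9 and 72.1 CPM in S1. Hsd11b1, which regenerates active glucocorticoid, had 2.84, 3.72 and 4.76 CPM in V1, against 3.73, 5.76 and 7.48 CPM in S1. Etv1 did not overlap between areas and Hsd11b1 did, with log2 fold changes of 0.94 ± 0.16 (adjusted p = 0.00109) and -0.66 ± 0.16 (adjusted p = 0.00895). For layer 2/3, 4 of 12 were higher and 4 lower. Otof, which encodes the calcium sensor otoferlin, rose by 0.99 ± 0.15 (adjusted p = 0.000325), and the homeobox gene Cux1 and the membrane protein gene Lamp5 fell, with log2 fold changes of -0.58 ± 0.11 (adjusted p = 0.00146) and -0.43 ± 0.08 (adjusted p = 0.00114). For layer 6 corticothalamic neurons, 3 of 12 were higher and 3 lower: Ntsr1, the neurotensin receptor that marks these cells, had 8.66, 12.8 and 16.5 CPM in V1, against 6.49, 7.92 and 10.5 CPM in S1. Ighm, the gene of the immunoglobulin mu chain, had 38.1, 47.6 and 55.8 CPM in V1, against 57.6, 73.8 and 86.4 CPM in S1. The ranges of Ntsr1 overlapped and those of Ighm did not, with log2 fold changes of 0.63 ± 0.13 (adjusted p = 0.00334) and -0.64 ± 0.11 (adjusted p = 0.000901). Among layer 6b and layer 6 intratelencephalic markers, 0 of 12 were higher and 3 lower, among them Car3, a carbonic anhydrase at 0.0535, 0.478 and 0.754 CPM in V1, against 0.650, 1.16 and 2.05 CPM in S1. Of these 12, 0 were lower in KO Camk2a and 0 without C1, C15, C18 and C24. None of these layer markers was called with C24. Without C24, 11% of all genes tested were called higher and 10.8% lower.

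**Figure D3:**
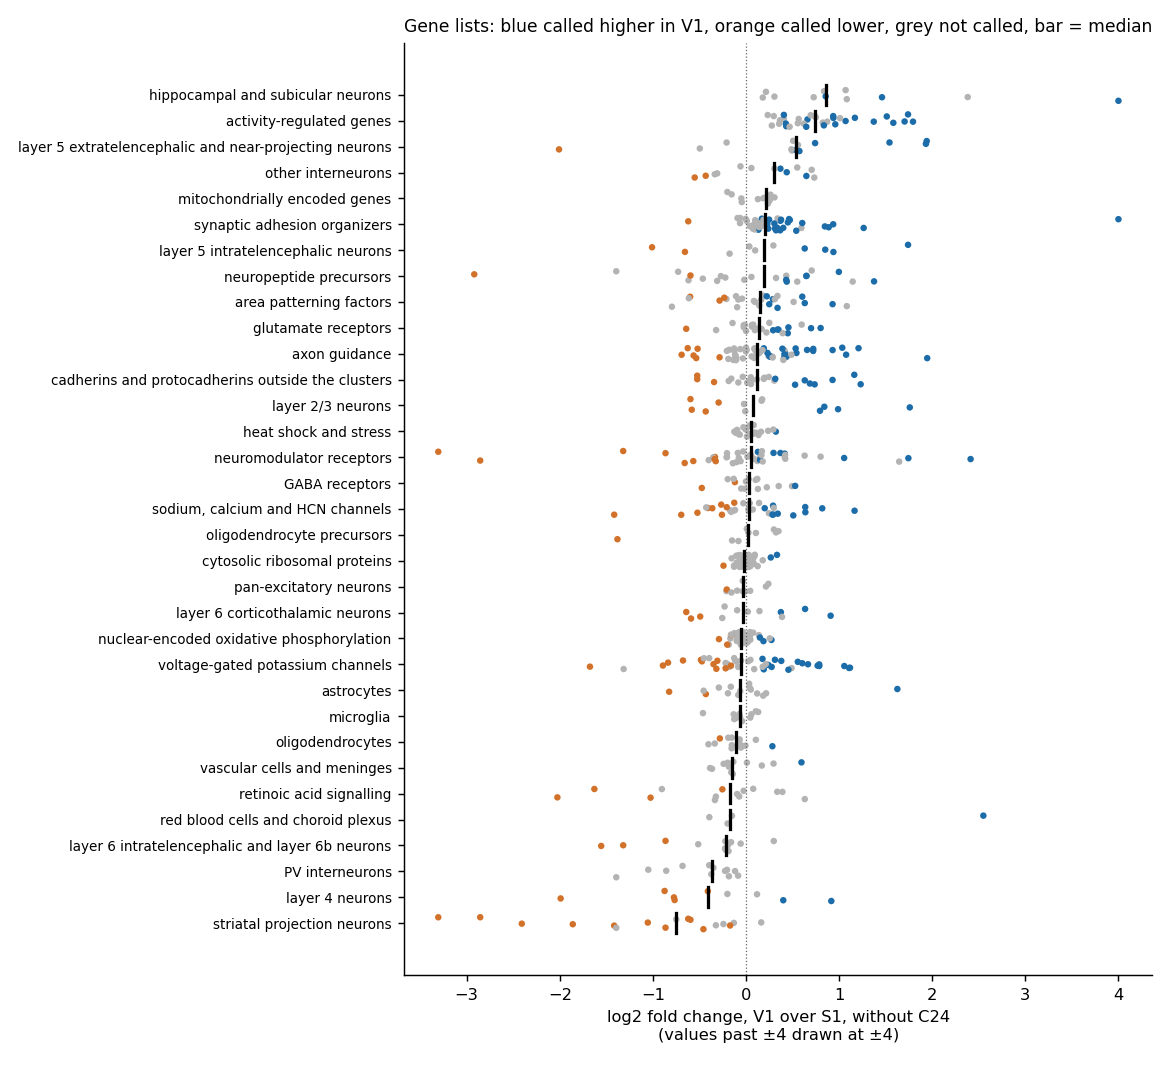
Log2 fold change, V1 over S1, of the members of 33 gene lists in WT Camk2a neurons without C24 (x axis), 1 point per gene and 1 row per list, with blue for genes called higher in V1, orange for genes called lower, grey for genes not called and a black bar at the list's median. Activity-regulated genes have a median of 0.74 and layer 4 markers of -0.41, while the median over all genes tested is -0.0050.

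Ion channel subunits changed in both directions. Of 45 voltage-gated and calcium-activated potassium channel genes, 16 were higher and 11 lower in V1, and in KO Camk2a 9 higher and 12 lower. Kcnab3, an auxiliary beta subunit of Kv1 channels (chr11:69326258-69333042, plus strand, mm10), had 73.7, 88.4 and 131 CPM in V1, against 238, 314 and 347 CPM in S1. Every S1 library other than C24 had at least 238 CPM and no V1 library other than C24 exceeded 131 CPM. Kcnab3 fell by 1.68 ± 0.13 on the log2 scale (adjusted p = 1.97e-06), and had a value of -1.30 (adjusted p = 0.0577) with C24. Kcns1, a silent subunit that modifies Kv2 channels, fell as well, at 35.3, 47.0 and 49.9 CPM in V1, against 65.9, 82.2 and 89.3 CPM in S1. Kcns1 fell by 0.84 ± 0.09 on the log2 scale (adjusted p = 1.81e-05). Kcnn3, which encodes the small conductance calcium-activated channel SK3, was higher in V1, at 7.44, 8.51 and 10.1 CPM in V1, against 3.29, 3.88 and 5.07 CPM in S1. Kcnn3 rose by 1.12 ± 0.11 on the log2 scale (adjusted p = 5.62e-06), and had a value of 0.92 (adjusted p = 0.0385) with C24. Kcnb2, a Kv2 subunit, rose by 0.60 ± 0.07 (adjusted p = 2.99e-05). Of 32 sodium, calcium and HCN channel genes, 10 were higher and 9 lower, and none was called with C24. Auxiliary sodium channel subunits went both ways. Scn4b had 76.5, 97.7 and 118 CPM in V1, against 227, 270.3 and 307 CPM in S1. Scn3b had 103, 122 and 199 CPM in V1, against 57.1, 61.9 and 66.5 CPM in S1. Neither gene overlapped between areas, with log2 fold changes of -1.42 ± 0.09 (adjusted p = 1.17e-07) and 1.17 ± 0.15 (adjusted p = 0.000183). Hcn3, a hyperpolarization-activated channel, rose by 0.64 ± 0.09 (adjusted p = 0.000153).

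Synaptic adhesion genes, which organize synapses from either side, were mostly higher in V1. Of 48 tested, 24 were called higher and 1 lower, against 11% and 10.8% of all genes tested, with a median log2 fold change of 0.20; in KO Camk2a 14 higher and 1 lower, and with C24 1 higher and 0 lower. Tenm2, a teneurin that binds latrophilins across the synapse (chr11:36006656-37235964, minus strand, mm10), had 131, 147 and 200.0 CPM in V1, against 54.5, 64.4 and 78.1 CPM in S1. All 7 V1 libraries were above all 7 S1 libraries, and C24 had 83.5 CPM in the library labelled V1 and 186 CPM in the library labelled S1. Tenm2 rose by 1.26 ± 0.10 on the log2 scale (adjusted p = 9.87e-07), and had a value of 0.88 (adjusted p = 0.0742) with C24. Tenm3, a teneurin needed for the wiring of the mouse visual system, had 136, 157 and 176 CPM in V1, against 89.1, 102 and 116 CPM in S1. Tenm3 rose by 0.60 ± 0.07 on the log2 scale (adjusted p = 1.84e-05), and had a value of 0.50 (adjusted p = 0.0362) with C24. Adgrl2, a latrophilin, was the member that fell, at 70.5, 81.3 and 106 CPM in V1, against 107, 128 and 143 CPM in S1. Adgrl2 fell by 0.62 ± 0.09 on the log2 scale (adjusted p = 0.000188). C1ql2, a secreted synaptic protein of hippocampal mossy fibres, had 0.330, 0.741 and 7.04 CPM in V1, against 0.0211, 0.0418 and 0.0810 CPM in S1. It is also on the list of hippocampal markers, and rose by 5.20 ± 0.85 (adjusted p = 0.000901).

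Cell-surface molecules of axon guidance and of cell sorting also moved. Among 58 axon guidance genes, 20 were higher and 6 lower, in KO Camk2a 14 higher and 5 lower, and none was called with C24. Efnb3, which encodes ephrin-B3, had 10.2, 18.3 and 38.1 CPM in V1, against 4.53, 5.07 and 7.03 CPM in S1, without overlap. Efnb3 rose by 1.95 ± 0.34 on the log2 scale (adjusted p = 0.00162). Nrp2, a semaphorin and VEGF receptor, had 15.8, 18.7 and 25.0 CPM in V1, against 7.89, 9.91 and 10.8 CPM in S1, without overlap. Nrp2 rose by 1.03 ± 0.11 on the log2 scale (adjusted p = 8.15e-06). Epha5, an ephrin receptor, was higher by 0.42 ± 0.05 (adjusted p = 1.84e-05). Sema7a, a membrane-anchored semaphorin, had 238, 261 and 287 CPM in V1, against 393, 404 and 430.1 CPM in S1, without overlap. Sema7a fell by 0.63 ± 0.05 on the log2 scale (adjusted p = 1.13e-06). Of 25 cadherins and protocadherins outside the gene clusters, 8 were higher and 3 lower. Cdh8, a type II cadherin, had 60.0, 62.9 and 74.8 CPM in V1, against 32.5, 34.5 and 40.1 CPM in S1. The lowest V1 library was well above the highest S1 library. Cdh8 rose by 0.93 ± 0.05 on the log2 scale (adjusted p = 6.63e-08), and had a value of 0.65 (adjusted p = 0.0687) with C24. Cdh11, of the same type, and Pcdh19, an X-linked protocadherin, rose by 0.63 ± 0.07 (adjusted p = 1.47e-05) and 1.23 ± 0.11 (adjusted p = 3.81e-06), both without overlap. In the list of area patterning factors, which contains Cdh8 and Cdh11, 7 of 26 were higher and 3 lower, and 11 higher and 5 lower with animal blocks. Lmo3, a LIM-only transcriptional regulator, fell by 0.60 ± 0.13 (adjusted p = 0.00471) and Efna5, an ephrin that guides thalamic axons, by 0.28 ± 0.07 (adjusted p = 0.00816), with overlapping ranges in both.

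Receptors for transmitters followed no single direction. Of 24 glutamate receptor genes, 7 were higher and 1 lower, and 11 higher and 2 lower with animal blocks. Grm5, a group I metabotropic receptor, had 159, 187 and 208 CPM in V1, against 122, 139.9 and 146 CPM in S1, without overlap. Grm5 rose by 0.46 ± 0.06 on the log2 scale (adjusted p = 3.33e-05). Grm4, a presynaptic group III receptor, had 25.9, 29.9 and 39.6 CPM in V1, against 41.7, 50.7 and 58.7 CPM in S1. Grm4 fell by 0.64 ± 0.11 on the log2 scale (adjusted p = 0.000714). Of 15 GABA receptor genes 1 was higher and 2 lower, a share near the 21.8% of all genes called, and 4 higher and 3 lower with animal blocks. Gabrb1 rose by 0.53 ± 0.05 (adjusted p = 2.19e-06) and Gabrd, the delta subunit of extrasynaptic receptors, had 67.6, 77.0 and 93.0 CPM in V1, against 97.0, 111 and 135 CPM in S1. Gabrd fell by 0.47 ± 0.08 on the log2 scale (adjusted p = 0.00068). Among 43 receptors for neuromodulators, 8 were higher and 9 lower. Of the 9 lower, Drd1, Drd2 and Adora2a, dopamine and adenosine receptors, are also on the list of striatal markers described below, and Drd2 and Adora2a had log2 fold changes of -3.31 ± 0.52 (adjusted p = 0.000559) and -2.85 ± 0.47 (adjusted p = 0.000832). Without C1, C15, C18 and C24 the list had 5 higher and 4 lower. Adrb1, the beta-1 adrenergic receptor, had 62.8, 70.6 and 80.3 CPM in V1, against 47.8, 52.3 and 61.9 CPM in S1. Adrb1 rose by 0.42 ± 0.06 on the log2 scale (adjusted p = 9.32e-05), and had a value of 0.36 (adjusted p = 0.0362) with C24. Hrh1, the histamine H1 receptor, had 31.8, 42.3 and 46.4 CPM in V1, against 16.2, 18.9 and 22.3 CPM in S1, without overlap. Hrh1 rose by 1.05 ± 0.10 on the log2 scale (adjusted p = 5.95e-06).

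Of 22 neuropeptide precursors, 6 were higher and 2 lower in V1, and 11 higher and 3 lower with animal blocks. Of the 2 lower, Penk is also on the list of striatal markers described below. Cartpt, the precursor of the CART peptides (chr13:99898489-99901091, minus strand, mm10), had 0.321, 1.64 and 2.52 CPM in V1, against 10.7, 12.2 and 20.7 CPM in S1. All S1 libraries other than C24 had at least 10.7 CPM, while no V1 library other than C24 exceeded 2.52 CPM, and C24 had 12.9 CPM in the library labelled V1 and 0.543 CPM in the library labelled S1. Cartpt fell by 2.92 ± 0.28 on the log2 scale (adjusted p = 1.23e-05), the lowest value of the named genes that averaged at least 5 CPM, and had a value of -1.85 (adjusted p = 0.121) with C24. Adcyap1, the precursor of PACAP, ran the other way, at 22.6, 28.3 and 34.1 CPM in V1, against 11.4, 13.98 and 17.7 CPM in S1. Adcyap1 rose by 1.00 ± 0.12 on the log2 scale (adjusted p = 2.99e-05). Cck, the cholecystokinin precursor, rose by 0.44 ± 0.10 (adjusted p = 0.00568), with overlapping ranges. Of 14 retinoic acid genes, 0 were higher and 4 lower, in a fit that called 21.8% of all genes. With animal blocks, where 33.7% of all genes were called, 2 were higher and 7 lower. Aldh1a1, which makes retinoic acid, had 7.02, 7.71 and 10.5 CPM in V1, against 15.7, 17.4 and 18.5 CPM in S1. Dhrs3, which reduces retinaldehyde, had 1.59, 2.29 and 2.86 CPM in V1, against 6.28, 6.86 and 7.78 CPM in S1. Neither overlapped between areas, with log2 fold changes of -1.02 ± 0.09 (adjusted p = 2.31e-06) and -1.63 ± 0.11 (adjusted p = 1.58e-07).

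Further genes with the largest folds, among those averaging at least 5 CPM, were not on any list. Itga4, the alpha-4 integrin subunit (chr2:79255426-79333123, plus strand, mm10), had 18.97, 24.6 and 32.3 CPM in V1, against 5.03, 6.64 and 8.70 CPM in S1. The lowest V1 library had more than the highest S1 library by a wide margin, and C24 had 8.37 CPM in the library labelled V1 and 30.4 CPM in the library labelled S1. Itga4 rose by 1.99 ± 0.11 on the log2 scale (adjusted p = 6.63e-08), and had a value of 1.35 (adjusted p = 0.0719) with C24. Cpne7, a copine that binds membranes in a calcium-dependent way, had 10.0, 15.96 and 53.4 CPM in V1, against 2.66, 3.45 and 4.45 CPM in S1, without overlap. Cpne7 rose by 2.75 ± 0.42 on the log2 scale (adjusted p = 0.000792). Tnfaip6, a secreted hyaluronan-binding protein, had a median of 5.84 CPM in V1 (2.52 to 16.4), against 1.77 CPM in S1 (0.732 to 3.22). Tnfaip6 rose by 2.17 ± 0.44 on the log2 scale (adjusted p = 0.00429). Lower in V1 was Pld5, a member of the phospholipase D family (chr1:175962306-176275312, minus strand, mm10), at 3.61, 4.63 and 5.86 CPM in V1, against 17.4, 20.1 and 24.0 CPM in S1. Its groups did not overlap, and C24 had 21.3 CPM in the library labelled V1 and 4.96 CPM in the library labelled S1. Pld5 fell by 2.10 ± 0.12 on the log2 scale (adjusted p = 6.63e-08), and had a value of -1.44 (adjusted p = 0.0714) with C24. Tmem215, which encodes a transmembrane protein, had 16.8, 22.0 and 22.9 CPM in V1, against 54.8, 61.9 and 71.5 CPM in S1, without overlap. Tmem215 fell by 1.58 ± 0.07 on the log2 scale (adjusted p = 3.59e-09). Il4ra, the interleukin-4 receptor alpha chain, had 2.55, 3.73 and 4.25 CPM in V1, against 6.88, 11.2 and 12.3 CPM in S1. Htra1, a secreted serine protease, had 6.20, 10.6 and 12.4 CPM in V1, against 22.7, 27.5 and 30.4 CPM in S1. Both were without overlap, with log2 fold changes of -1.60 ± 0.15 (adjusted p = 2.75e-06) and -1.45 ± 0.16 (adjusted p = 2.41e-05). Pygm, the muscle-type glycogen phosphorylase, and Esyt1, an extended synaptotagmin of endoplasmic reticulum contact sites, fell to medians of 4.81 and 7.41 CPM in V1, against 12.7 and 19.2 CPM in S1. Igtp, an interferon-inducible GTPase, had 0.406, 3.37 and 4.93 CPM in V1, against 1.63, 10.1 and 12.3 CPM in S1, and its ranges overlapped, C15 being low in both areas. Igtp fell by 1.50 ± 0.50 on the log2 scale (adjusted p = 0.0495) without a block, and had a value of -1.50 (adjusted p = 1.94e-07) over the 6 pairs.

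Among the 56 genes called with C24 included, some differed by less between its 2 libraries than the genes above. Foxo6, a forkhead transcription factor of excitatory neurons, had 15.1, 17.9 and 20.2 CPM in V1, against 9.94, 10.7 and 12.8 CPM in S1, and C24 had 9.54 CPM in the library labelled V1 and 10.5 CPM in the library labelled S1. Foxo6 rose by 0.73 ± 0.06 on the log2 scale (adjusted p = 1.52e-06), and had a value of 0.64 (adjusted p = 0.0362) with C24. Ly6h, which modulates nicotinic receptors, had 136, 158 and 179 CPM in V1, against 73.3, 85.3 and 104 CPM in S1, without overlap. In C24 it had 81.4 CPM in the library labelled V1 and 111 CPM in the library labelled S1, and its log2 fold change with C24 was 0.72 (adjusted p = 0.0402). Slc6a11, the GABA transporter GAT3, which astrocytes express most, and Bmp3, a secreted ligand of the TGF-beta family, were higher in V1, with log2 fold changes of 0.49 (adjusted p = 0.0392) and 0.48 (adjusted p = 0.0433) with C24. Krt12, a keratin gene, was lower in V1 in both fits, at 14.7, 16.3 and 21.1 CPM in V1, against 23.3, 26.8 and 29.8 CPM in S1, a log2 fold change of -0.55 (adjusted p = 0.0468) with C24. For some calls C24 did not run against its labels: Gtf3a, transcription factor IIIA, had 6.42, 10.2 and 14.01 CPM in V1, against 2.91, 4.68 and 7.98 CPM in S1 in the other animals. Its C24 libraries had 10.0 CPM in the library labelled V1 and 3.47 CPM in the library labelled S1. Ndufab1, the mitochondrial acyl carrier protein, had 46.7, 61.0 and 73.6 CPM in V1, against 39.5, 40.9 and 48.1 CPM in S1 in the other animals, and in C24 it had 53.0 CPM in the library labelled V1 and 42.2 CPM in the library labelled S1. Their log2 fold changes with C24 were 1.08 (adjusted p = 0.0362) and 0.48 (adjusted p = 0.027).

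Markers used for neurons outside the cortex moved with the area, though some of them are also on lists of cortical neurons. Of 11 markers of hippocampal and subicular neurons 3 were called higher in V1, all 11 had a positive log2 fold change, and their median was 0.86; in KO Camk2a 7 were higher. The 3 of 11 called are near the share of all genes called, and the median was 0.26 with 2 called in the fit with animal blocks. Their summed level was 178, 205 and 637 CPM (lowest, median and highest) in V1, against 148, 156 and 167 CPM in S1, and it was highest in the V1 libraries of C1, C15 and C18, at 637, 492 and 306 CPM. Several genes of large fold were high in the same V1 libraries. Thsd4, a matrix protein gene, had 31.1, 20.6 and 5.56 CPM in V1 of C1, C15 and C18, and a V1 median of 1.90, against a highest S1 value of 1.65 CPM. Gpr161, a receptor of the primary cilium, had 97.7, 65.1 and 25.6 CPM there, and Doc2b, a calcium sensor of vesicle release, had 86.8, 70.2 and 28.2 CPM, against at most 13.7 and 12.7 CPM in S1. Without these 3 animals and C24, the hippocampal list had 3 higher and 3 lower, 8 members positive and 3 negative, and a median of 0.18. The 3 animals were left out for their high sums of this same list, so a smaller median was likely beforehand. In KO Camk2a, which shares no animal with them, all 11 members were positive, with a median of 1.30. In the same fit the log2 fold changes of Thsd4, Gpr161 and Doc2b were 0.45 (adjusted p = 0.345), 0.63 (adjusted p = 0.00395) and 0.41 (adjusted p = 0.0513), and 3230 genes were called in all, 2502 of them among the 3405. Cpne7, C1ql2, Efnb3 and Crym had smaller values without the 3 animals, at 1.81 (adjusted p = 1.31e-05), 4.58 (adjusted p = 0.0102), 1.34 (adjusted p = 0.00102) and 1.31 (adjusted p = 0.032). Of the other genes described above, Fosb, Car3, Efna5 and Cck were no longer called, at adjusted p of 0.0924, 0.0579, 0.0861 and 0.0799. Egr2, Itga4 and Cdh8 had 1.94 (adjusted p = 0.0296), 1.99 (adjusted p = 0.000157) and 0.94 (adjusted p = 4.87e-06).

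Striatal projection neuron markers ran the other way. Of 17, 11 were lower and 0 higher in V1, with a median of -0.75; in KO Camk2a 0 higher and 5 lower, and with C24 0 higher and 2 lower. Their summed level was 813, 855 and 885 CPM in V1, against 1207, 1312 and 1445 CPM in S1, without overlap. Drd2, the dopamine D2 receptor, had 0.106, 0.172 and 0.478 CPM in V1, against 0.397, 2.68 and 4.70 CPM in S1. Syndig1l, a marker of striatum, had 1.04, 1.38 and 2.27 CPM in V1, against 2.75, 9.48 and 16.4 CPM in S1. The levels were low, with C15 the lowest of the S1 libraries in both, and the log2 fold changes were -3.31 ± 0.52 (adjusted p = 0.000559) and -2.41 ± 0.37 (adjusted p = 0.000672). Both were called with C24, whose library labelled S1 had 0.109 CPM of Drd2. Ppp1r1b, which encodes DARPP-32 and is also made by deep-layer cortical neurons, had 96.0, 107 and 129 CPM in V1, against 208, 233 and 249 CPM in S1. Ppp1r1b fell by 1.05 ± 0.08 on the log2 scale (adjusted p = 4.38e-07). Ppp1r1b and Scn4b, given above with the channels, added far more to the gap between the summed levels than Drd2 and Syndig1l. The sum is therefore no measure of striatal cells alone. The striatal list shares Drd1 with the layer 6 list, Scn4b with the channel list, and Drd1, Drd2 and Adora2a with the list of neuromodulator receptors. It also shares Penk with the layer 2/3 and neuropeptide lists, and Tac1 with the list of PV interneurons. Markers of PV interneurons summed to 225 to 1204 CPM in V1, against 304 to 1644 CPM in S1; none of 12 was called, and 12 had a negative log2 fold change, with a median of -0.36. In the fit with animal blocks 6 of them were called lower, and 5 were without C18, C19 and C24. Without C1, C15, C18 and C24, 0 were called, 5 were positive and 7 negative, and the median was -0.06. The part of these other neurons in the differences above was not tested.

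**Figure D4:**
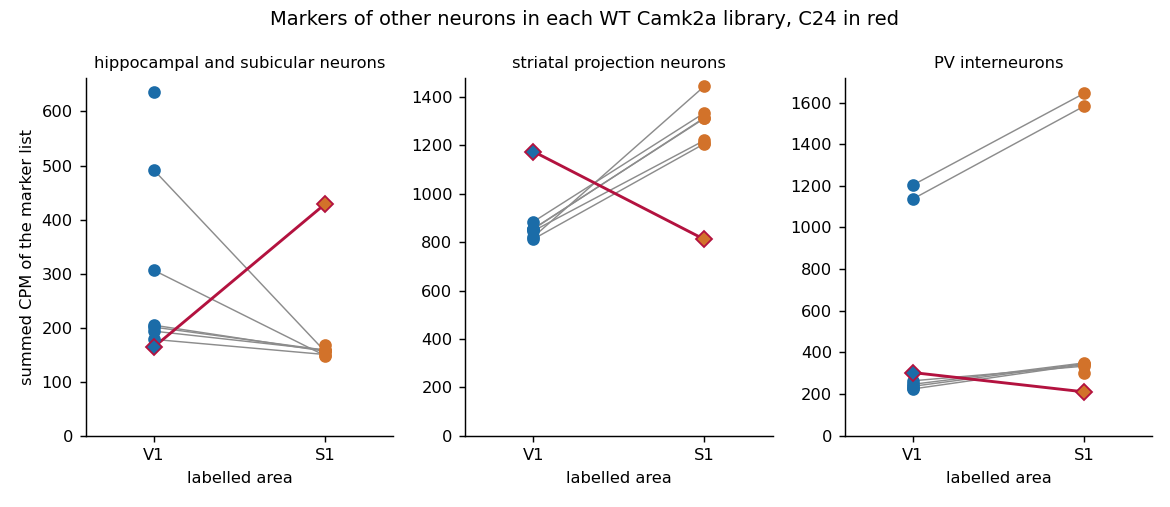
Summed level in CPM (y axis, from 0) of the marker lists of hippocampal and subicular neurons, striatal projection neurons and PV interneurons in each WT Camk2a library by labelled area (V1 left, S1 right), with lines joining the libraries of 1 animal and C24 in red. The hippocampal sum is highest in 3 V1 libraries and in the C24 library labelled S1, the striatal sum is higher in S1 in the other 6 animals, and the PV sum is high in both areas of C18 and C19.

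The same areas were then compared in Camk2a neurons lacking Fmr1, which share no library with the WT comparison. Fmr1 had 70.7, 80.0 and 91.3 CPM in V1, against 66.1, 73.1 and 80.5 CPM in S1 in the WT libraries. In KO Camk2a, 2058 of 15754 genes were called between areas (13.1%), 1011 higher (6.42%) and 1047 lower (6.65%) in V1. Of the 1722 genes higher in WT V1 without C24, 1720 were tested in KO, 1666 had the same sign and 736 were called higher (42.8% of those tested and 72.8% of the 1011 called higher in KO). Of the 1683 lower, 1676 were tested, 1645 had the same sign and 774 were called lower (46.2%, and 73.9% of 1047). No gene was called in opposite directions. Across 13004 genes with a mean of at least 1 CPM, the log2 fold changes of WT without C24 and of KO had a Pearson r of 0.86. Genes are not independent replicates, so this is a description. Itga4 had a log2 fold change of 2.05 (adjusted p = 1.42e-07) in KO, Tenm2 of 1.14 (adjusted p = 2.52e-05), Kcnab3 of -1.75 (adjusted p = 4.6e-09) and Pld5 of -1.82 (adjusted p = 0.00305). The difference of the area effect between WT and KO called 0 of 16360 genes (0%) with edgeR over all libraries and 0 of 16310 (0%) without C24, with 608 and 560 genes at an unadjusted p under 0.05. Limma-voom with a random animal block called 1 over all libraries. The smallest adjusted p without C24 among the named genes was that of the zinc finger antiviral protein gene Zc3hav1, with a difference of -1.51 (adjusted p = 0.815).

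**Figure D5:**
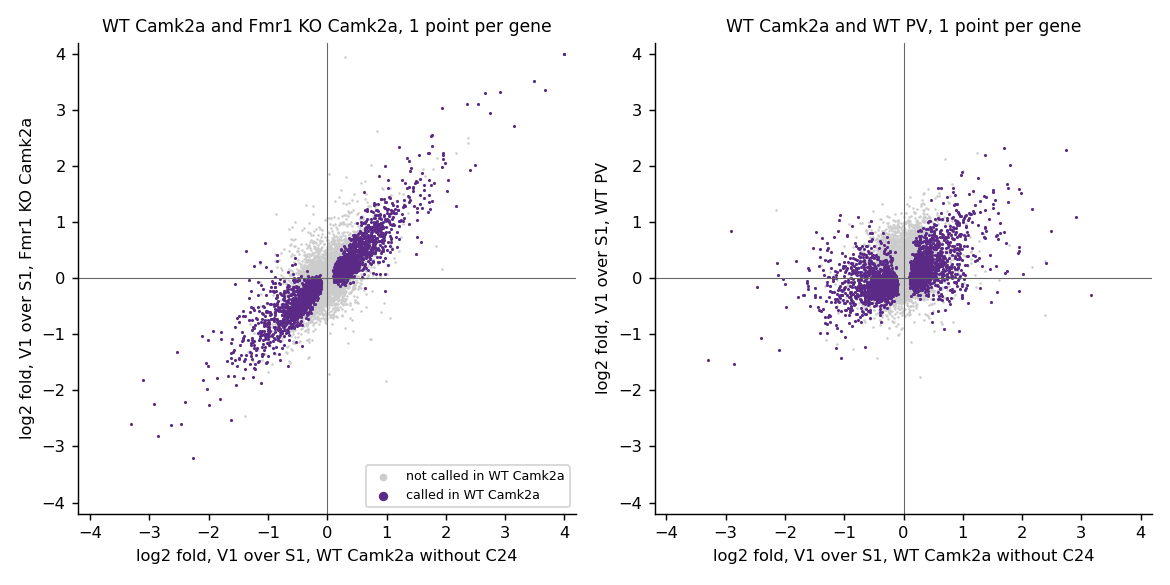
Log2 fold change, V1 over S1, of each gene in WT Camk2a without C24 (x axis) against the same in Fmr1 KO Camk2a (left, y axis) and in WT PV (right, y axis), with genes called in WT Camk2a in purple and others in grey, values past ±4 drawn at ±4. Called genes lie along the diagonal in the left panel, with 0 called in opposite directions, and spread into all quadrants in the right panel, with 62 and 45 called in opposite directions.

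The areas were also compared in PV interneurons of WT mice, which share no library with the Camk2a comparison. In WT PV, 3291 of 15964 genes were called (20.6%), 1702 higher (10.7%) and 1589 lower (9.95%) in V1, and 5060 without the animal P22, whose libraries also lie against their labels in the plot of area scores. In WT PV, 6 of 10 markers of excitatory neurons were called higher in V1 (median 0.34), 9 of 15 of astrocytes (0.38), 6 of 9 of oligodendrocyte precursors (0.56), 4 of 12 of microglia (0.47) and 9 of 15 of vessels and meninges (0.58). Of 12 PV interneuron markers, 6 were called lower, and of 43 nuclear-encoded oxidative phosphorylation genes 29 were. The excitatory markers summed to 1114 to 2268 CPM in V1, against 1049 to 1323 CPM in S1, and the part of these other cells in the PV values and in the differences between classes was not tested. Of the genes higher in Camk2a V1 without C24 and tested in PV, 514 of 1656 were called higher (31.0%, and 30.2% of 1702) and 62 lower. Of those lower in Camk2a V1, 481 of 1604 were called lower (30.0%, and 30.3% of 1589) and 45 higher. The area effect differed between the classes at 263 of 17044 genes (1.54%) over all libraries, at 992 of 17121 (5.79%) without C24 and at 1610 of 17099 (9.42%) without C24 and P22. Sema3e, a secreted guidance cue, had a log2 fold change of 0.93 in Camk2a without C24 and of -0.94 in PV, and the difference was 1.62 ± 0.29 (adjusted p = 0.00612) over all libraries. Its Camk2a libraries had 38.6, 44.5 and 72.7 CPM in V1, against 22.1, 27.1 and 32.0 CPM in S1. Cartpt was lower in V1 in Camk2a without C24 and higher in PV, at -2.92 and 0.84. Its difference by the interaction test over all libraries, with C24, was -2.67 ± 0.64 (adjusted p = 0.0266). Gnb4, a G protein beta subunit, had 20.4, 30.3 and 48.2 CPM in V1, against 27.9, 40.4 and 65.1 CPM in S1 in Camk2a. Gnb4 was not called there, and had a log2 fold change of 1.19 in PV. Its difference by the same test over all libraries was -1.66 (adjusted p = 0.0122). Egr4 and Egr2 had log2 fold changes of 1.58 (adjusted p = 0.00684) and 2.03 (adjusted p = 0.00709) in PV.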

How the data were processed

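Per the labels' protocols, cortex was dissected from 1.5 mm coronal slices into buffer with cycloheximide, HA-tagged ribosomes were immunoprecipitated, RNA integrity numbers were 7 or above, and Ovation RNA-Seq System V2 libraries, which carry no molecular identifiers, were read as paired ends of 100 bases. The authors deposited 1 table of estimated counts per gene, not normalized, for 17634 genes, of which 71.1% of values were not whole. The submitters' processing notes name STAR, Salmon, limma and mm10; their roles and versions are not given in the sources used here. Salmon-type estimates divide reads among genes with shared sequence, so paralogs and overlapping genes are uncertain.

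Counts were rounded, filtered with filterByExpr and TMM-scaled, and tested with edgeR 4.0.16 (robust quasi-likelihood fit, R 4.3.3) on ~ sex + area, adjusted over all genes tested, and checked on simulated counts. Area effects were compared between classes and genotypes as interaction terms with sex. Alternatives were DESeq2 1.42.0, limma-voom 3.58.1 with a random animal block, the animal as a fixed block, RLE scaling, no filter, no sex term, a glial marker score, and animals left out. The block follows the animal codes, since both libraries of a code come from 1 animal. With C24 in the area means, deviations from them correlated at 0.12 to 0.58 within the other 6 animals and at -0.13 in C24. With C24 left out of the means, the 6 animals had 0.18 to 0.54. The V1 library of C15 correlated best with the S1 library of another animal in both settings. Those of C20 and C24 did so with C24 in. Libraries of a group differed beyond counting noise (smallest chi-square per degree of freedom 9.36).

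Named genes were Camk2a, Fmr1, the 15 largest folds per direction among called genes averaging at least 5 CPM, up to 2 called members per list and direction by p, and 5 per direction for interactions, with the rule applied to all 16 libraries and again without C24; 2 of them are not reported here, and some others are not printed. The 33 lists of 716 genes were layer and other cell type markers and the families named above, and 22 of these genes were not in the table. Members, lists and the comparison were chosen with earlier results of these data known. Positions are from GENCODE M21 and promoters from RefSeq.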

Additional observations from a re-analysis of the deposited data

Results flagged for a closer look

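Chance alone would set apart about 1 in 20 groups, and 224 groups were examined for a library far from the rest. In the area score, the C24 library labelled V1 (-1.40) was far below the other V1 libraries, and the C24 library labelled S1 (-0.385) far above the other S1 libraries. With C24 kept in, it was the outlying library in 28 of 111 named genes in V1 and 54 of 111 in S1. Most of these genes were named because the other libraries differed by area. A pair of libraries against its labels therefore tends to stand apart in them, and these counts are no separate support. The share over all genes was not computed.

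Without C24, single V1 libraries stood apart from the other 6 for Krt12 in C18 (21.1 CPM, high), Acyp1, an acylphosphatase gene, in C23 (13.2 CPM, low), Tshz2 in C15 (54.7 CPM, high), Nnat, the neuronatin gene, in C1 (29.3 CPM, high) and Adgrl2 in C1 (106 CPM, high). Single S1 libraries did so for Crym in C2 (21.7 CPM, high), Cartpt in C16 (20.7 CPM, high), Kcnab3 in C2 (238 CPM, low), Otof in C2 (11.2 CPM, high), Cdh8 in C20 (40.1 CPM, high) and Kl, a choroid plexus and kidney gene, in C20 (2.29 CPM, high).

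The area effect differed between WT Camk2a and WT PV neurons at 263 genes by the interaction test over all libraries. Differences on the log2 scale, Camk2a minus PV, were 1.62 for Sema3e, 1.34 for Gtf3a, 1.21 for Scand1, a SCAN domain gene, -1.16 for Dhrs3, -1.34 for Pygm, -1.66 for Gnb4 and -2.67 for Cartpt, with edgeR adjusted p of 0.00612, 0.0183, 0.017, 0.037, 0.00761, 0.0122 and 0.0266.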

How the results depend on the processing

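The count of calls over all 16 libraries depended on C24 and on the fit. Of 56 calls, RLE scaling and no filter gave 57 each, DESeq2 1371, limma-voom with a random replicate block 1791, no sex term 385, the replicate block of 7 animals 7, the same animals with no block 3, and leaving out the Batch 2 library 2727. Leaving out C18 and C19, leaving out C16 and C23, and a glial marker score gave 0 each with edgeR, with 2193, 1691 and 3827 genes at an unadjusted p under 0.05. Leaving out 1 animal at a time gave 0 to 3405, the highest without C24 and at most 23 without any other, and the 5 animals whose removal gave 0 (C16, C18, C19, C20 and C23) left 2517 to 3073 genes at an unadjusted p under 0.05. Without C24, the 3405 calls became 5263 with the replicate block of 6 animals, 5538 with limma-voom and 1812 without C16 and C23, and were 2454 to 3936 under the other settings tried, including each further animal left out. In KO Camk2a 2058 calls became 3684 with limma-voom, and in WT PV 3291 became 5060 without P22. The 263 differences between Camk2a and PV became 847 with limma-voom, 1068 without P22, 83 without the animals rich in PV markers, 992 without C24 and 1610 without C24 and P22, and the 0 differences between WT and KO became 1 with limma-voom. The use of the libraries without C24 for the values above was chosen after seeing the data. So was every setting applied on top of leaving out C24, and so were those without C16 and C23 or without C1, C15 and C18. The cause of these shifts was not tested. In the WT Camk2a comparison, no named gene called before or after a change of setting reversed its direction. Changes of sign in genes called in neither fit were not counted. Counting error was small beside the spread between animals at these depths, except for genes near 1 CPM or below. P-values treat libraries as samples, and without a block the areas of 1 animal count as independent.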

Other observations

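The next counts are for WT Camk2a neurons without C24 and without animal blocks. Gene groups that every cell uses were called less often between V1 and S1 than all genes tested (21.8%). Cytosolic ribosomal protein genes had 2 of 55 higher and 1 lower, with a median log2 fold change of -0.02: Rpl13 had 109.8, 118 and 126 CPM in V1, against 76.1, 95.6 and 107 CPM in S1, and Rpl22, the gene whose product carries the tag, had 31.2, 33.5 and 36.5 CPM in V1, against 36.9, 38.8 and 43.8 CPM in S1. Both were without overlap, with log2 fold changes of 0.33 ± 0.07 (adjusted p = 0.00266) and -0.24 ± 0.05 (adjusted p = 0.00151). Nuclear-encoded oxidative phosphorylation genes had 3 of 43 higher and 3 lower, the mitochondrially encoded genes 0 of 13 higher and 0 lower, and heat shock and stress genes 1 of 23 higher and 0 lower. With animal blocks, 7 higher and 1 lower were called of the 13 mitochondrially encoded genes, with a median log2 fold change of 0.29, 4 higher and 1 lower of the heat shock genes, and 5 higher and 5 lower of the nuclear-encoded ones. That fit called 33.7% of all genes.

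Markers of glia and blood vessels were called no more often than all genes tested (21.8%). There were 1 of 15 higher and 2 lower for astrocytes, 1 of 14 higher and 1 lower for oligodendrocytes, and 0 of 9 higher and 1 lower for their precursors. Microglia had 0 of 12 higher and 0 lower, and vessels and meninges 1 of 12 higher and 0 lower. The astrocyte markers that moved went both ways. Sox9, a transcription factor of astrocytes, had 5.45, 6.97 and 9.29 CPM in V1, against 1.84, 2.25 and 3.05 CPM in S1, while S100b, a calcium-binding protein of astrocytes, had 5.60, 7.78 and 10.4 CPM in V1, against 12.5, 14.5 and 16.1 CPM in S1. Neither overlapped between areas, with log2 fold changes of 1.63 ± 0.15 (adjusted p = 3.47e-06) and -0.83 ± 0.12 (adjusted p = 0.000154). Markers of other interneurons had 3 of 13 higher and 2 lower. Among red blood cell and choroid plexus genes, 1 of 4 was higher, Kl, at 0.964, 1.20 and 13.4 CPM in V1, against 0.295, 0.621 and 2.29 CPM in S1, with the high V1 values in C1, C15 and C18, at 13.4, 10.1 and 6.28 CPM, and it was not called without them, at 0.41 (adjusted p = 0.675).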
